A study of Drosophila melanogaster with 6 samples.

Results

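Animals break adenine and guanine nucleotides down to nucleosides, to hypoxanthine and xanthine, and then to urate. In Drosophila, xanthine dehydrogenase, encoded by ry (rosy), makes urate, and urate oxidase, encoded by Uro in the Malpighian tubule, turns urate into allantoin. Xanthine dehydrogenase works only with a molybdenum cofactor that carries a sulfur atom, and the enzyme encoded by mal (maroon-like) adds that sulfur. The adenosine deaminase-related growth factors (Adgf) are secreted proteins, and those studied as enzymes turn extracellular adenosine, a stress signal, into inosine. CG16758 encodes a purine nucleoside phosphorylase, which removes the ribose from nucleosides.

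The members were 10 named genes: ry, Uro, mal, Adgf-A, Adgf-A2, Adgf-B, Adgf-C, Adgf-D, Adgf-E and CG16758. Every probe set that the platform annotation pairs with a single one of these genes was taken, a probe set being the group of short probes that reads a transcript. This gave 9 probe sets for 9 genes, of 18769 probe sets tested and 11983 genes with a probe set of their own, and Uro was not analysed here because the annotation used pairs no probe set with it alone. Identifiers were 1638882_at for ry, 1631688_at for mal and 1626799_a_at for CG16758. Those of the Adgf genes were 1624054_at (Adgf-A), 1632885_at (Adgf-A2), 1638046_at (Adgf-B), 1634216_at (Adgf-C), 1639079_at (Adgf-D) and 1638647_at (Adgf-E). In RefSeq's gene order Adgf-B, Adgf-A and Adgf-A2 are neighbours, as are Adgf-D and Adgf-C. The annotated spans of Adgf-A and Adgf-A2 overlap, and whether their probe sets read separate transcripts was not tested.

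The arrays held RNA of whole virgin males of the w1118 strain, which lacks the white eye pigment transporter, 20 flies to a sample. METH flies, aged 5 days, fed for 24 h on the standard fly diet ("blue diet" in the labels) with 0.6% (w/v) methamphetamine (METH), and control flies of the same age fed on it without the drug. There were 3 samples for each diet, pooled over animals and over all tissues. Levels are given as a percentage of the signal of AFFX-Dros-ACTIN_M_r, an actin probe set used as the reference on each array, and differences as log2 fold changes of METH over control with their standard error (SE).

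The actin reference itself had signals of 700 to 868 on METH arrays and 922 to 1220 on control arrays, without overlap. Dividing by it gave all probe sets together a median log2 fold change of 0.24, against -0.13 with the signals as deposited. Deposited signals, which are not divided by this reference, are therefore given beside the levels of several genes. Whether they had been scaled to a common target is not given. Median signals were 50.6 to 65.0 on METH arrays and 60.0 to 69.1 on control arrays. Rank correlations between arrays were 0.966 to 0.972 between diets and 0.968 to 0.975 within a diet. The labels call the samples biological replicates, and with 3 against 3 an exact permutation test cannot give a p below 0.1.

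Of the 9 genes, ry, mal and Adgf-D (3 genes) were higher in METH flies by limma at an adjusted p under 0.05, and none was lower. Without adjustment 5 were higher at that threshold, Adgf-A2 and Adgf-E in addition, and again none was lower. The methods' t-test, at their p of at most 0.005 and at least 1.5-fold, called Adgf-D alone, and at a p below 0.008, a limit used elsewhere in the study, all 3 genes. Over all probe sets 0.842% were called higher and 0.416% lower, and without adjustment 9.38% were higher and 2.12% lower. The members were chosen with earlier results of these data known, so their counts and median are no independent result. The median log2 fold change of the 9 genes was 0.47, which is 0.23 above the median of all probe sets. Their log2 fold changes ran from -0.18 for Adgf-C to 1.06 for Adgf-D. RNA of whole flies pools organs, so a change in the number of cells of a type and a change in RNA per cell cannot be told apart.

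**Figure D1:**
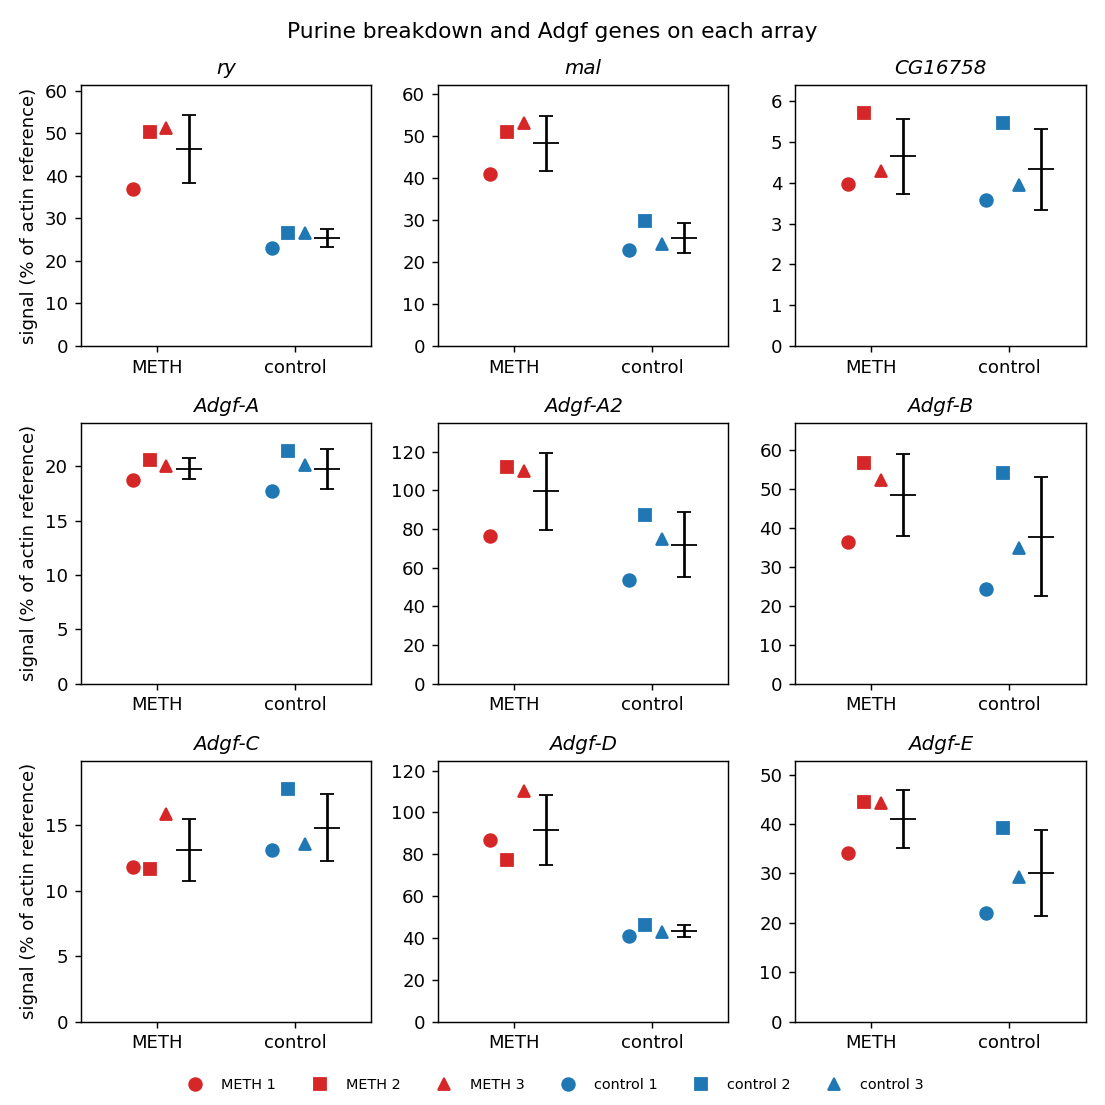
Signal of each of the 9 genes on each array, as a percentage of the actin reference (vertical axes, each starting at 0), for METH and control flies, with symbols for the sample numbers and black bars for the mean ± SD (n = 3 each). The METH values lie above all control values for ry, mal and Adgf-D, and the diets overlap for the other 6 genes.

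Both ry and mal were higher in METH flies by limma. The signal of ry was 37.0, 50.4 and 51.3% of the actin reference in METH flies, against 23.0, 26.6 and 26.5% in control flies. The lowest METH sample thus lay above the highest control sample. Means were 46.2 ± 7.97% in METH and 25.3 ± 2.04% in control flies (SD, n = 3 each; log2 fold change 0.86, SE 0.17, limma adjusted p = 0.0272). In deposited units the signal of ry was 308, 438 and 359 on METH arrays and 280, 245 and 260 on control arrays, again without overlap. Of all probe sets, 15.7% had every METH value above every control value with the actin reference and 2.58% below, against 2.61% above and 13.6% below with the signals as deposited. Of the 9 genes 3 stood above and none below with the actin reference, and 3 above and 2 below as deposited.

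For mal, the sulfurase that completes the cofactor of xanthine dehydrogenase, METH samples had 40.9, 51 and 53.2% of the actin reference and control samples 22.9, 29.8 and 24.4%. Means were 48.4 ± 6.58% in METH and 25.7 ± 3.61% in control flies (SD, n = 3 each; log2 fold change 0.91, SE 0.17, limma adjusted p = 0.0162). The diets did not overlap in deposited units either, with 340, 443 and 372 on METH arrays and 279, 274 and 240 on control arrays. The log2 ratio of ry to mal on the same array differed by -0.06 between METH and control flies, and the diets overlapped (exact two-sided permutation p = 0.5).

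Both calls depended on the scaling and on single arrays. They passed under median centring, 75th percentile centring and quantile normalization, but not with the signals as deposited, where the log2 fold change was 0.48 for ry (adjusted p = 0.197) and 0.54 for mal (adjusted p = 0.103), nor with the eIF-4a control as reference. Neither passed when the spread was not tied to the signal level (adjusted p = 0.33 for ry and 0.282 for mal). Without METH replicate 2 or 3 or control replicate 1 or 3 neither gene passed, with adjusted p values of 0.0935 to 0.161 for ry and 0.0641 to 0.121 for mal. Without control replicate 2, ry alone did not pass (adjusted p = 0.0528).

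CG16758, the nucleoside phosphorylase, had a mean signal at the 45.1 percentile of all probe sets. It had 3.97, 5.70 and 4.29% of the actin reference in METH flies and 3.58, 5.46 and 3.95% in control flies, and the diets overlapped. Its log2 fold change of 0.11 (SE 0.30, 95% interval -0.53 to 0.75, limma adjusted p = 0.874) was 0.13 below the median of all probe sets. The interval leaves room for a rise or a fall, and the sign turned with every other scaling.

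Adgf-D had the largest difference of the 6 Adgf genes and of all 9 genes. Its protein, like that of Adgf-A, has adenosine deaminase activity. The signal was 87.0, 77.3 and 110% of the actin reference in METH flies, against 40.7, 46.2 and 42.9% in control flies. Every METH sample was thus well clear of the control range. Means were 91.3 ± 16.6% in METH and 43.3 ± 2.75% in control flies (SD, n = 3 each), a 2.09-fold difference (log2 fold change 1.06, SE 0.17, limma adjusted p = 0.00406). In deposited units Adgf-D had 724, 672 and 767 on METH arrays and 496, 426 and 422 on control arrays. It passed under every scaling, with log2 fold changes of 0.69 to 1.06, and with any single array left out (adjusted p 0.00739 to 0.0305). It did not pass when the spread was not tied to the signal level (adjusted p = 0.196).

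Adgf-C, the gene next to Adgf-D, was not called in either direction. It had 11.8, 11.7 and 15.9% of the actin reference in METH flies and 13.1, 17.8 and 13.6% in control flies, with overlap. The log2 fold change was -0.18 (SE 0.21, 95% interval -0.63 to 0.27, limma adjusted p = 0.695). In deposited units the METH values of 98.1, 102 and 111 lay below the control values of 160, 164 and 134, and limma did not call it there either (log2 fold change -0.55, adjusted p = 0.176). The ratio of the neighbours on the same array, which dividing an array by a factor cannot change, did not overlap between diets. This pair was chosen after the values were seen. It joins the genes with the highest and lowest log2 fold changes of the members, so the separation is no independent result. The log2 ratio of Adgf-D to Adgf-C was higher by 1.24 in METH flies, with METH arrays 1.16 to 1.33 above the control mean and control arrays from -0.18 to 0.10 around it (exact two-sided permutation p = 0.1, the smallest possible, adjusted p = 0.14).

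Adgf-A, whose product from blood cells (hemocytes) limits extracellular adenosine in larvae, had nearly the same level on both diets. It had 18.7, 20.6 and 20.0% of the actin reference in METH flies and 17.7, 21.4 and 20.1% in control flies. The 95% interval of its log2 fold change was -0.36 to 0.37 (limma adjusted p = 0.993), which leaves room for a change of up to this size either way. In deposited units METH arrays were lower, with 155, 179 and 140 against 215, 198 and 198 on control arrays, and its direction turned to lower under every other scaling, without a call (adjusted p 0.391 to 0.831).

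Adgf-A2, known in flies as a male-specific growth factor and the neighbour of Adgf-A, had 76.6, 112 and 110% of the actin reference in METH flies and 53.8, 87.1 and 75% in control flies. Adgf-E had 34.2, 44.4 and 44.2% in METH flies and 21.9, 39.2 and 29.3% in control flies. Both had a METH sample within the control range, and neither passed the adjusted threshold. Their log2 fold changes were 0.48 (SE 0.21, limma adjusted p = 0.426) for Adgf-A2 and 0.47 (SE 0.21, limma adjusted p = 0.431) for Adgf-E. With the sample number as a block in limma both were called higher, which made 5 of the 9 genes higher and none lower, against 5.5% higher and 1.39% lower of all probe sets, but the labels do not say that a number marks a shared batch.

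Adgf-B had the largest relative spread among control flies of the 9 genes. It had 36.5, 56.7 and 52.4% of the actin reference in METH flies and 24.3, 54.3 and 34.8% in control flies. The sample numbered 2 was the highest of both diets, as it also was for Adgf-A, Adgf-A2, Adgf-E and CG16758. The log2 fold change of Adgf-B was 0.41 (SE 0.26, 95% interval -0.15 to 0.98, limma adjusted p = 0.488). With the signals as deposited, Adgf-B, Adgf-A2 and Adgf-E had log2 fold changes of 0.04 to 0.10.

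**Figure D2:**
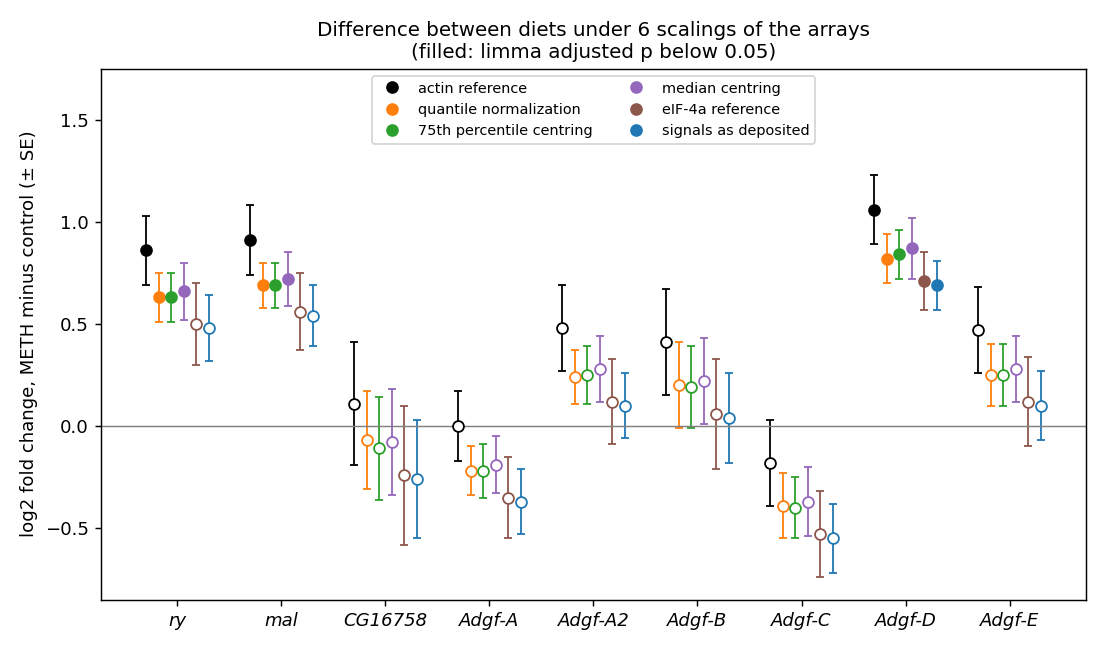
Log2 fold change of METH over control flies (vertical axis, ± SE) for each of the 9 genes under 6 scalings of the arrays, filled where the adjusted p was below 0.05. Adgf-D passes under each scaling, ry and mal under 4 of them, and the sign of Adgf-A and CG16758 depends on the scaling.

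Ratios between genes on the same array were compared for 7 pairs, chosen after the values were seen. Their p values were adjusted over the pairs, which does not account for that choice. Adgf-A itself had a log2 fold change of 0 with the actin reference and -0.37 with the signals as deposited. Ratios over Adgf-A thus repeat the differences of the other gene with the actin reference. They cannot tell a rise of that gene from a fall of Adgf-A. Taken over Adgf-A, the log2 ratio of ry was higher by 0.85 and that of mal by 0.91 in METH flies, without overlap between diets. The ratio of Adgf-D to Adgf-A was higher by 1.06 and that of Adgf-A2 to Adgf-A by 0.47, again without overlap. That of Adgf-B to Adgf-A was higher by 0.41, with overlap (exact two-sided permutation p = 0.2, adjusted p = 0.233). All pairs without overlap had the smallest exact p, 0.1 (adjusted p = 0.14). No pair could pass a threshold of 0.05 with 3 arrays each.

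**Figure D3:**
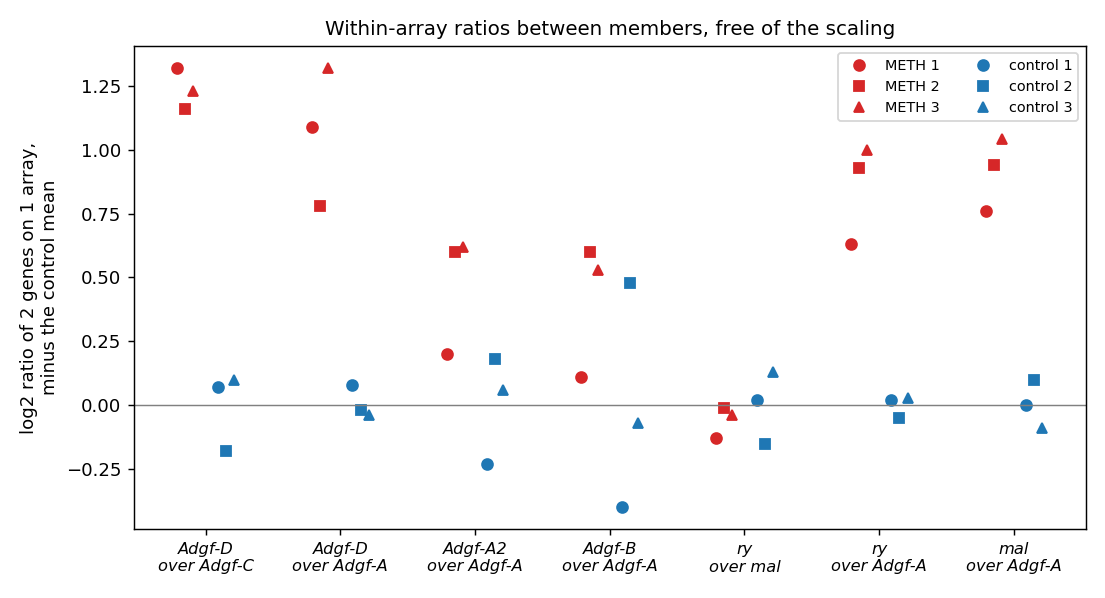
Log2 ratio of 2 genes on the same array, minus the mean of the control arrays (vertical axis), for 7 pairs of genes, each symbol being an array of METH or control flies. METH arrays lie above all control arrays for 5 pairs, and the diets overlap for Adgf-B over Adgf-A and for ry over mal.

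Other genes of the route were grouped by role, with a gene's value that of its brightest probe set. Of 34 genes, 28 were measured. By limma 1 of them, Mocs1, was higher at an adjusted p under 0.05 and none was lower, and without adjustment 6 were higher and none lower. For all probe sets the shares were 0.842% higher and 0.416% lower, and 9.38% and 2.12% without adjustment. Their median log2 fold change was 0.29, only 0.05 above that of all probe sets. With the actin reference, 10 of them had every METH value above every control value and none below, where 15.7% of all probe sets stood above. As deposited, 1 stood above and 5 below, where 2.61% of all probe sets stood above and 13.6% below.

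Mocs1 belongs to the genes of the molybdenum cofactor and its other enzymes, 6 of 10 of which were measured. Its enzyme carries out the opening step of cofactor synthesis, upstream of the sulfur added by mal. Mocs1 had 30.8, 36.2 and 38.1% of the actin reference in METH flies, against 19.9, 19.0 and 21.1% in control flies. The diets did not overlap, and they did not overlap in deposited units, with 256, 314 and 267 on METH arrays and 242, 176 and 208 on control arrays. The log2 fold change was 0.80 (SE 0.16, limma adjusted p = 0.0266). Mocs1 fell short of the threshold under the other scalings, for instance with an adjusted p of 0.0714 after median centring and 0.323 with the signals as deposited. It also did so without METH replicate 2 or 3 or without any of the control replicates (adjusted p 0.065 to 0.14).

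Aldehyde oxidases are relatives of xanthine dehydrogenase and use the same sulfurated cofactor. AOX1 had 237, 283 and 351% of the actin reference in METH flies and 164, 205 and 179% in control flies, without overlap (log2 fold change 0.66, SE 0.19, limma adjusted p = 0.19). In deposited units its diets overlapped. With the sample number as a block AOX1 was called higher (limma adjusted p = 0.0226), with same-numbered samples differing by 0.53, 0.47 and 0.98 on the log2 scale. AOX3 had a log2 difference of 0.46 (SE 0.18, limma adjusted p = 0.408), and AOX2 and AOX4, at levels of at most 3.24% of the actin reference, had -0.52 (SE 0.76) and -0.13 (SE 0.34). The sulfite oxidase gene shop, whose enzyme uses the cofactor without added sulfur, had 0.42 (SE 0.24, limma adjusted p = 0.47).

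Genes that feed or drain adenosine did not pass. By their brightest probe sets, both genes of AMP and adenosine deamination stood above the control range on every METH array with the actin reference. Of all probe sets 15.7% did so, and the log2 fold changes of both genes were 0.11 above the median of all probe sets. In deposited units both genes overlapped with the control range. AMPdeam, which encodes AMP deaminase, had a log2 difference of 0.35 by its brightest probe set (SE 0.17, limma adjusted p = 0.441). Its dimmer probe sets had 0.62 (SE 0.23, limma adjusted p = 0.355), 0.38 (SE 0.23, adjusted p = 0.475) and 0.34 (SE 0.34, adjusted p = 0.641). For the last of them the diets overlapped. With the sample number as a block, the dimmer probe set with 0.62 was called higher (limma adjusted p = 0.0456). The other probe sets of AMPdeam were not. Ada, the adenosine deaminase-like gene outside the Adgf family, had a log2 difference of 0.36 (SE 0.20, limma adjusted p = 0.459). Among all probe sets, 9.38% were higher at an unadjusted p under 0.05 by limma. Of 5 genes of adenosine phosphorylation and salvage measured, 1 was higher at that threshold and none at the adjusted one. This was Ahcy, whose enzyme splits S-adenosylhomocysteine into homocysteine and adenosine (log2 fold change 0.44, SE 0.18, adjusted p = 0.424). The adenosine kinase gene Adk1 had 0.37 (SE 0.20) and AhcyL2, a gene similar to Ahcy, had 0.26 (SE 0.16).

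Among 7 nucleotidases and nucleoside phosphorylases none passed, and 2 were higher at an unadjusted p under 0.05 by limma, where 9.38% of all probe sets were. These were Nt5b, a cytosolic nucleotidase, with a log2 fold change of 0.47 (SE 0.16, adjusted p = 0.319), and CG18128, similar to CG16758, with 0.48 (SE 0.22, adjusted p = 0.434, and 0.0337 with the sample number as a block). Nucleotidases on the cell surface release adenosine from extracellular AMP, and NT5E-2 had 0.32 (SE 0.17, adjusted p = 0.453). Another such gene, veil, named after its values were seen, had 86.5, 96.1 and 116% of the actin reference in METH flies and 102, 123 and 117% in control flies (log2 fold change -0.20, SE 0.17, limma adjusted p = 0.582). In deposited units the METH values of veil, 719, 834 and 809, lay below the control values of 1240, 1130 and 1150, and limma called it lower with those signals and after quantile normalization.

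None of 6 genes of the adenosine receptor and nucleoside transporters passed limma's threshold, adjusted or unadjusted, and the methods' t-test called none. The concentrative transporters CNT2 and CNT1 had log2 fold changes of 0.42 (SE 0.22, adjusted p = 0.448) and 0.41 (SE 0.30, adjusted p = 0.529), and the equilibrative transporter Ent1 had 0.24 (SE 0.18, adjusted p = 0.544). The receptor gene AdoR had 2.75, 2.90 and 2.65% of the actin reference in METH flies and 2.82, 3.34 and 3.45% in control flies (log2 fold change -0.20, SE 0.32, limma adjusted p = 0.77). In deposited units AdoR had 22.9, 25.2 and 18.6 on METH arrays and 34.3, 30.8 and 33.9 on control arrays. As deposited, 3 of the 6 genes, AdoR among them, stood below all control values, where 13.6% of all probe sets did. None stood above, and limma called none of the 6 there. The remaining genes, CG30016, similar to the hydrolase that follows urate oxidase, and bw, a transporter of pigment granules, had log2 fold changes of 0.23 (SE 0.21) and -0.02 (SE 0.30), with overlap between diets.

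**Figure D4:**
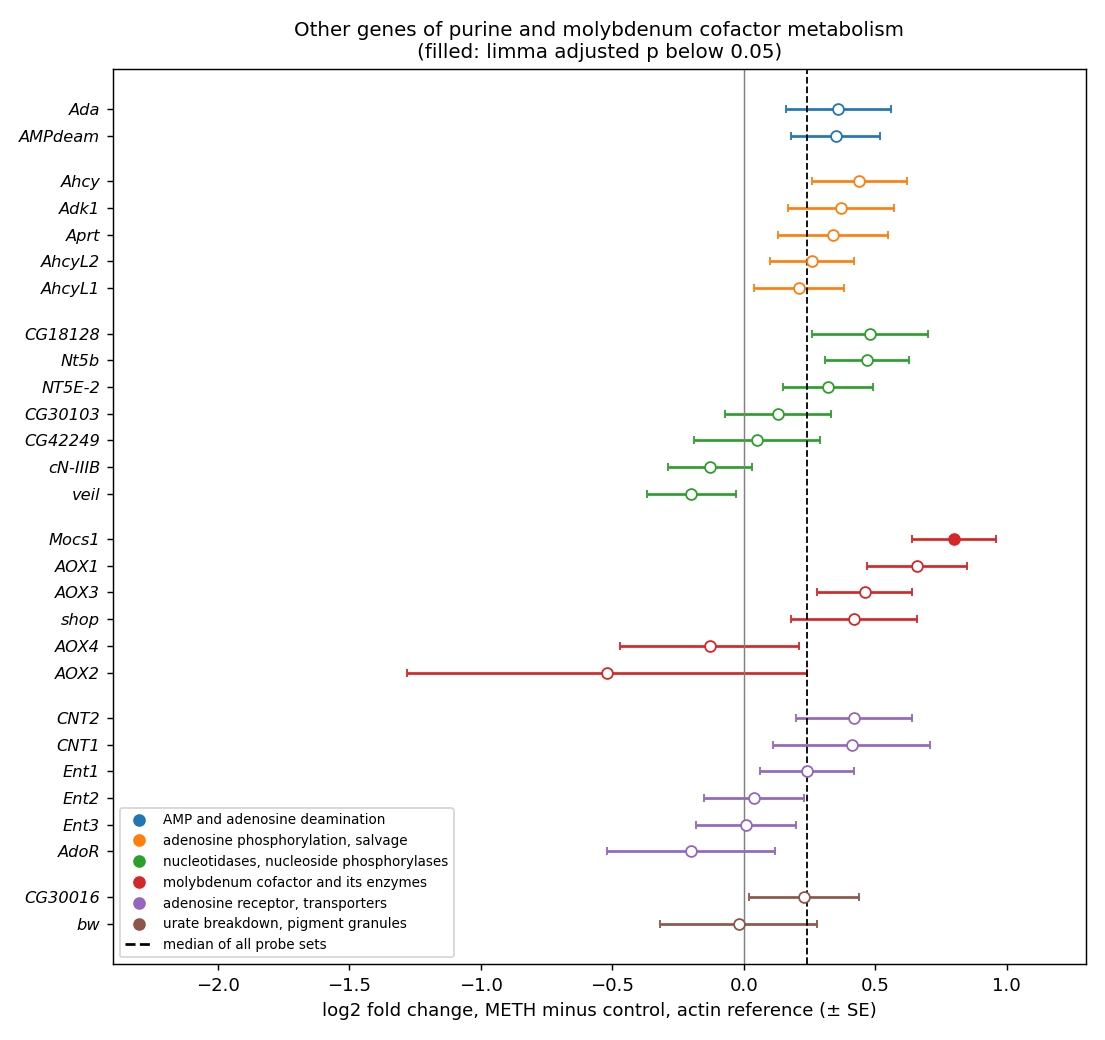
Log2 fold change of METH over control flies with the actin reference (horizontal axis, ± SE) for 28 other genes of purine and molybdenum cofactor metabolism, coloured by role. Mocs1 (filled) alone passes an adjusted p of 0.05, and the dashed line marks the median of all probe sets, 0.24.

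Tissue markers were set beside the shares over the whole array with the actin reference. By limma these shares were 0.842% higher and 0.416% lower, or 9.38% and 2.12% at an unadjusted p under 0.05. The median probe set had a log2 fold change of 0.24. Of 11 Malpighian tubule markers measured none was called by limma, 2 were higher without adjustment, and their median log2 fold change was 0.17. Their summed level was 771 to 1010% of the actin reference in METH and 737 to 907% in control flies, but the deposited signals summed to 6410 to 7350 on METH arrays and 8370 to 8970 on control arrays, and limma called 2 of the markers lower there. Of 9 hemocyte markers none passed, adjusted or unadjusted, with a sum of 1060 to 1410% in METH and 853 to 1070% in control flies, and as deposited 9230 to 9900 on METH arrays and 9790 to 10500 on control arrays. Most of this sum was Nplp2, with 923 to 1260% in METH and 754 to 941% in control flies. Of 8 fat body markers, Pepck1 was higher (log2 fold change 1.08, SE 0.19, limma adjusted p = 0.00983) and Lsd-1 lower (-1.19, SE 0.18, limma adjusted p = 0.00242), and the sum was 2000 to 2300% in METH and 1660 to 2030% in control flies, and as deposited 16100 to 17400 on METH arrays and 17900 to 20200 on control arrays. The larval fat body gene Fbp1 had signals of at most 3.45 on any array. Of 11 testis markers none passed and 4 were higher at an unadjusted p under 0.05 by limma, with a median log2 fold change of 0.42 and a sum of 1980 to 2490% in METH and 1350 to 1980% in control flies, and as deposited 16500 to 18800 on METH arrays and 16400 to 18200 on control arrays. Of 9 midgut markers 3 were lower, Jon25Bi, Jon25Bii and mag, with a sum of 2330 to 2910% in METH and 2160 to 3060% in control flies, and as deposited 20200 to 20600 on METH arrays and 26000 to 28300 on control arrays. The direction of the tubule, hemocyte and fat body sums thus depends on the scaling. The part of these tissues in the differences of ry, mal, Adgf-D and Mocs1 was not tested.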

How the data were processed

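Total RNA of each sample was labelled with biotin by the authors and hybridized to an Affymetrix Drosophila Genome 2.0 array, and images were quantified with GCOS 1.4 (version from the submitters' processing notes). What the authors deposited is an intensity on a linear scale for every probe set and array. Any scaling to a common target is not given in the sources used here, and detection calls were not used.

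After the study's methods, each signal was divided by that of AFFX-Dros-ACTIN_M_r of its array, and log2 was taken. With 183 AFFX probe sets left out, 18769 were tested with limma 3.58.1 in R 4.3.3, with a spread that depends on the signal level, two-sided, and Benjamini-Hochberg adjustment over all of them at 0.05. SAM, which the methods use, was not run, because it regroups the arrays. The annotation pairs 13647 probe sets with 1 gene, 402 with several and 4720 with none, and 13544 symbols were updated through RefSeq gene identifiers. A marker symbol, don, reached another gene through an older symbol and was not used.

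The members and lists were chosen with earlier results of these data known. From each list of other purine genes, those past the threshold and the 3 of smallest adjusted p are named. AOX2, AOX4, shop, AdoR and veil are named in addition, outside this rule. Same-numbered samples of the diets deviated together with correlations of 0.02 to 0.06 over all probe sets. Over those brighter than the median the correlations were 0.31 to 0.59, and at most 0.05 with another number. The labels do not say that a number marks a shared batch, so the numbers were not taken as pairs in the main fit. Alternatives were 5 other scalings, a filter at the 40th percentile, a floor at the 20th percentile, no trend, no shared probe sets, the replicate block, each array left out, the methods' t-test at 2 limits, averaging the probe sets of a gene and an adjusted p of 0.10. The eIF-4a reference and the t-test limit of 0.005 were chosen after seeing the data. The fit was tested on simulated data. The number of arrays limits the precision. Figures were made in Python 3.11.15 with matplotlib 3.10.9.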

Additional observations from a re-analysis of the deposited data

How the results depend on the processing

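Members called higher numbered 3 with the actin reference, 1 (Adgf-D) with the signals as deposited or the eIF-4a reference, 0 without the trend of the spread or by the methods' t-test after Benjamini-Hochberg adjustment, and 1 to 3 with an array left out. With the methods' t-test at a p of at most 0.005, a limit added after seeing the data, 1 was higher (Adgf-D), ry (0.86) and mal (0.91) were not called, and over all probe sets 173 were higher and 48 lower. The log2 fold change of ry was 0.48 as deposited and 0.50 with eIF-4a (adjusted p = 0.466), that of mal 0.54 and 0.56 (adjusted p = 0.305). Without the trend or by the adjusted t-test the values of ry, mal and Adgf-D, 0.86, 0.91 and 1.06, did not pass, and ranges with an array left out were 0.77 to 1.01 for ry and 0.84 to 1.03 for mal. Signs turned for Adgf-A (-0.37 as deposited, -0.19 on the median, -0.22 on the 75th percentile, -0.22 after quantile normalization, -0.35 with eIF-4a) and CG16758 (-0.26, -0.08, -0.11, -0.07 and -0.24 in that order). With an array left out CG16758 ranged over -0.04 to 0.29, Adgf-A over -0.07 to 0.07 and bw over -0.32 to 0.25.

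Counts over all probe sets, 158 higher and 78 lower with the actin reference, were 114 higher and 381 lower as deposited, 131 and 169 when centred on the median, 147 and 211 on the 75th percentile, 161 and 264 after quantile normalization, and 98 and 214 with eIF-4a. Without the trend 17 were higher and 7 lower, by the adjusted t-test 2 and 0, and with an array left out 103 to 143 higher, the fewest without control replicate 3. Other purine genes called higher were 0 under the 5 other scalings, without the trend and by the adjusted t-test, and 0 to 1 with an array left out, and 1 (veil) was lower as deposited and with quantile normalization. Marker genes, 1 higher and 4 lower, were 7 lower as deposited, 0 higher and 1 lower without the trend, 0 and 0 by the adjusted t-test, and 0 to 1 higher with an array left out.

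As deposited, signs turned for Adk1 (-0.01), AhcyL2 (-0.12), Ent1 (-0.14), AMPdeam (-0.03), Ada (-0.02), NT5E-2 (-0.05) and CG30016 (-0.15). With eIF-4a they did so for AhcyL2 (-0.10), Ent1 (-0.11), AMPdeam (0.00), NT5E-2 (-0.03) and CG30016 (-0.12), and CG30016 was 0.00 with quantile normalization. The mean of both probe sets of bw was 0.07. The causes were not tested.

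With the replicate block, 1033 probe sets were higher (5.5%) and 260 lower (1.39%), and 5 members were higher, Adgf-A2 (0.48, adjusted p = 0.0314) and Adgf-E (0.47, adjusted p = 0.0303) in addition. By their brightest probe sets 3 of the other purine genes were higher with the block, Mocs1, AOX1 and CG18128, and 3 markers. The labels do not say that a number marks a shared day or batch. Over the probe sets brighter than the median the correlations of same-numbered samples were 0.31, 0.53 and 0.59, and every sample correlated best with its own number, which is a hint from the data and not from the design.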
